A study of Mus musculus with 3 samples.

Results

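The 9 genes described here encode enzymes that make or break down prostaglandins and leukotrienes. They were taken by name from the deposited table of 56691 genes, and each matched 1 line. The list was chosen by enzyme role with the counts and FPKM of these libraries, and the folds between them, known from earlier results, so those values are given as a description. RNA was sequenced from 3 cultures of mouse gastric epithelial organoids, structures of stomach cells kept in a gel matrix and a proliferation medium, with 1 library in each of 3 groups. The culture labelled Gpx4 KO-Mist1+ has the genotype label Gpx4 KO and came from Gpx4F/F;Mist1Cre/ERT2;RFPLSL mice, which carry floxed Gpx4 alleles, a tamoxifen-dependent Cre recombinase at the Mist1 locus and a Cre-dependent red fluorescent reporter. The Mist1+ and Mist1- cultures have the genotype label WT and came from Mist1Cre/ERT2;RFPLSL mice, so all groups share the Cre and the reporter. All mice were about 8 weeks old, and each title also carries the label P5. The Cre acts where the Mist1 locus is active, and the number of mice behind each culture is not given in the sources used here.

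Arachidonic acid is a fatty acid held in membrane phospholipids. Cytosolic phospholipase A2 frees it, the cyclooxygenases turn it into prostaglandin H2, and prostaglandin E synthases turn that into prostaglandin E2, which in the stomach supports mucus and bicarbonate secretion and protects the lining. Prostaglandin E2 is inactivated first by 15-hydroxyprostaglandin dehydrogenase, and its product is reduced by prostaglandin reductases. In a separate branch, 5-lipoxygenase makes leukotriene A4, which leukotriene C4 synthase joins to glutathione.

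The library labelled Gpx4 KO-Mist1+ held 16396693 counts, the Mist1+ library 16187378 and the Mist1- library 14943918. Each group being a single library, differences could not be checked between replicates or tested. Every comparison describes these libraries, and intervals are 95% intervals for counting error only. Levels are FPKM, in which counts are scaled to the exonic length of the gene and to the library total. A fold is the ratio of 2 counts after each was scaled to its library total. A gene was called when its log2 ratio of FPKM plus 1 reached 1 in size, that is 2-fold, among 13351 genes with at least 1 FPKM in at least 1 library. The 3 comparisons share libraries. Gpx4 itself had 2569 counts in the library labelled as its knockout, 1998 in Mist1+ and 4399 in Mist1-, so its count was not lower than in Mist1+. A count over the whole gene also takes reads from exons that a deletion leaves in place and does not check the deleted part. Bhlha15, the gene that encodes Mist1, had 370 counts in the library labelled Gpx4 KO-Mist1+, 580 in Mist1+ and 282 in Mist1-. It was highest in Mist1+, and each of its folds had an interval that left out 1, but it was not called in any comparison. In Bhlha15 the library labelled Gpx4 KO-Mist1+ lay nearer to Mist1- than to Mist1+. Epithelial markers were high in all 3 libraries, with Epcam, an epithelial adhesion protein, at 397 FPKM in the library labelled Gpx4 KO-Mist1+, 351 in Mist1+ and 427 in Mist1-.

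The promoters of 4 of the enzymes are shown because their levels set the library labelled Gpx4 KO-Mist1+ apart most from Mist1+ in fold of counts, with Ptges, Ptgs1 and Ptgs2 high and Hpgd low. They are RefSeq sequences on GRCm38.p6, 250 bases before to 50 after the annotated start, 5′ to 3′ on the gene's strand. The windows are chr2:30903248-30903547 on the minus strand for Ptges, chr2:36230176-36230475 on the plus strand for Ptgs1, chr1:150099781-150100080 on the plus strand for Ptgs2 and chr8:56294302-56294601 on the plus strand for Hpgd. Capitals mark matches, on either strand, to 7 motifs that were chosen after the values were seen.
Ptges: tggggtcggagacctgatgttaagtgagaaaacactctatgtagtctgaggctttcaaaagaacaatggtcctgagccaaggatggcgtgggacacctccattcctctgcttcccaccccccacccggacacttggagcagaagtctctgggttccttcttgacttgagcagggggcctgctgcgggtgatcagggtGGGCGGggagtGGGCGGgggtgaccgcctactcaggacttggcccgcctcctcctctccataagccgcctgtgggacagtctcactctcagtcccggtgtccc
Ptgs1: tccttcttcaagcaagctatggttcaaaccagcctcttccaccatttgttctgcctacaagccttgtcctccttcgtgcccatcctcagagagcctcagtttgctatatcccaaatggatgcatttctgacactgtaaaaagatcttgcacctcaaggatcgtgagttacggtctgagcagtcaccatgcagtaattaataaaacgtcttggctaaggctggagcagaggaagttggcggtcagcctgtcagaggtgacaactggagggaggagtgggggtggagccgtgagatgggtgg
Ptgs2: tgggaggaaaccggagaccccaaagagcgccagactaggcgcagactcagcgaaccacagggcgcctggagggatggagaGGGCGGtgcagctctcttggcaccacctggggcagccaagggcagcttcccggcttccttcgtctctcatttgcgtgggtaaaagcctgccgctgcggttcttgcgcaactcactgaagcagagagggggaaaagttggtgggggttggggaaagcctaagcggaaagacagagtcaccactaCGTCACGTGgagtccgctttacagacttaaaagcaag
Hpgd: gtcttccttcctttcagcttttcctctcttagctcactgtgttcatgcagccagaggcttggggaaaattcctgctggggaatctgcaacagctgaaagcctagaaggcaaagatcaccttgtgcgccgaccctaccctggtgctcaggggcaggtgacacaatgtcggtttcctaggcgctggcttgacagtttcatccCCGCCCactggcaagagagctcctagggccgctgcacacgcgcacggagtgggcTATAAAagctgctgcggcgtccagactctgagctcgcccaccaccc
The core bound by hypoxia-inducible factors was searched as ACGTG, and part of the cyclic AMP element as TGACG. The E-box was searched as CACGTG, the GC box as GGGCGG and the TATA box as TATAAA. The element bound by AP-1 was searched as TGANTCA, and the antioxidant response element as TGACNNNGC. CACGTG holds ACGTG on both strands. The Ptges window held 2 GC boxes, starting 53 and 42 bases before the start. The Ptgs2 window held a GC box 170 bases before the start and, 13 bases after it, a run in which TGACG on the minus strand overlaps CACGTG and ACGTG. The Hpgd window held a GC box 50 bases before and a TATA box 4 bases after the start, and the Ptgs1 window held none of the 7. GENCODE M21 puts the start of Hpgd 33 bases further downstream, and the TATA box begins 29 bases before that start. Of 32851 RefSeq promoter windows of 300 bases, 35.7% held GGGCGG, 20.8% TGACG, 19.6% ACGTG, 13.6% TATAAA, 12.4% TGACNNNGC, 7.81% TGANTCA and 7.15% CACGTG. A match is a description of letters and not of binding.

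Among the prostaglandin E synthases, Ptges stood apart. Ptges encodes the inducible microsomal prostaglandin E synthase, which acts on prostaglandin H2, mainly that from cyclooxygenase 2. The gene (ENSMUSG00000050737) lies on chromosome 2, 30889471 to 30929863, minus strand, in GENCODE M21 on GRCm38, a model that reaches further upstream than the RefSeq start shown above. It had 786 counts (732 to 843) for the library labelled Gpx4 KO-Mist1+, 4 (1.09 to 10.2) in Mist1+ and 12 (6.20 to 21.0) in Mist1-. It was thus readily counted in the library labelled as the knockout and close to undetected in both wild-type libraries. Its FPKM was 12.2 in the library labelled Gpx4 KO-Mist1+, 0.06 in Mist1+ and 0.20 in Mist1-. The library labelled Gpx4 KO-Mist1+ had a level 194-fold higher (75.5 to 714) than Mist1+ and 59.7-fold higher (34.0 to 116) than Mist1-. The width of the first interval comes from the 4 counts in Mist1+. On the log2 scale of FPKM plus 1, which holds back low denominators, the ratios were 3.64 and 3.46, at rank 9 and rank 13 from the top of 13351 genes. Only 5 genes exceeded Ptges when each gene was ranked by the smaller of these ratios, which put Ptges at rank 6. That last ranking was made for Ptges alone. Ptges passed the filter through the library labelled Gpx4 KO-Mist1+ only, and it was chosen with its folds known. The ranks therefore describe these values and test nothing. Mist1+ and Mist1- did not differ in Ptges beyond counting error, at 0.31-fold (0.07 to 1.02).

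Ptges2 and Ptges3, the other prostaglandin E synthase genes, did not share this pattern. Ptges2 encodes a membrane-associated prostaglandin E synthase that is expressed without induction. It had 303 counts in the library labelled Gpx4 KO-Mist1+, 330 in Mist1+ and 464 in Mist1-, or 3.65, 4.03 and 6.14 FPKM. The library labelled Gpx4 KO-Mist1+ and Mist1+ lay within counting error of each other (0.91-fold, 0.77 to 1.06). In Mist1+ the level was 1.52-fold lower (1.32 to 1.76) than in Mist1-. Ptges3 encodes p23, a co-chaperone of HSP90 that has also been described as a cytosolic prostaglandin E synthase. It had 2733, 3170 and 4272 counts, or 75.2, 88.3 and 129 FPKM in the library labelled Gpx4 KO-Mist1+, Mist1+ and Mist1-. The library labelled Gpx4 KO-Mist1+ was 1.17-fold lower (1.12 to 1.24) than Mist1+, and the level was 1.46-fold lower (1.39 to 1.53) in Mist1+ than in Mist1-. A processed copy, Ptges3-ps, had 542 counts in its own line in the library labelled Gpx4 KO-Mist1+, 641 in Mist1+ and 510 in Mist1-, so the division of reads between the gene and its copy is uncertain. The ranking of the synthases by FPKM was therefore not the same in each library. Per length, Ptges was 3.34-fold (2.92 to 3.82) above Ptges2 in the library labelled Gpx4 KO-Mist1+, whereas it was 64.1-fold (24.8 to 237) below it in Mist1+ and 30.1-fold (17.0 to 58.6) below it in Mist1-. Ptges3 remained above Ptges in the library labelled Gpx4 KO-Mist1+, by 6.17-fold (5.69 to 6.68) per length.

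**Figure D1:**
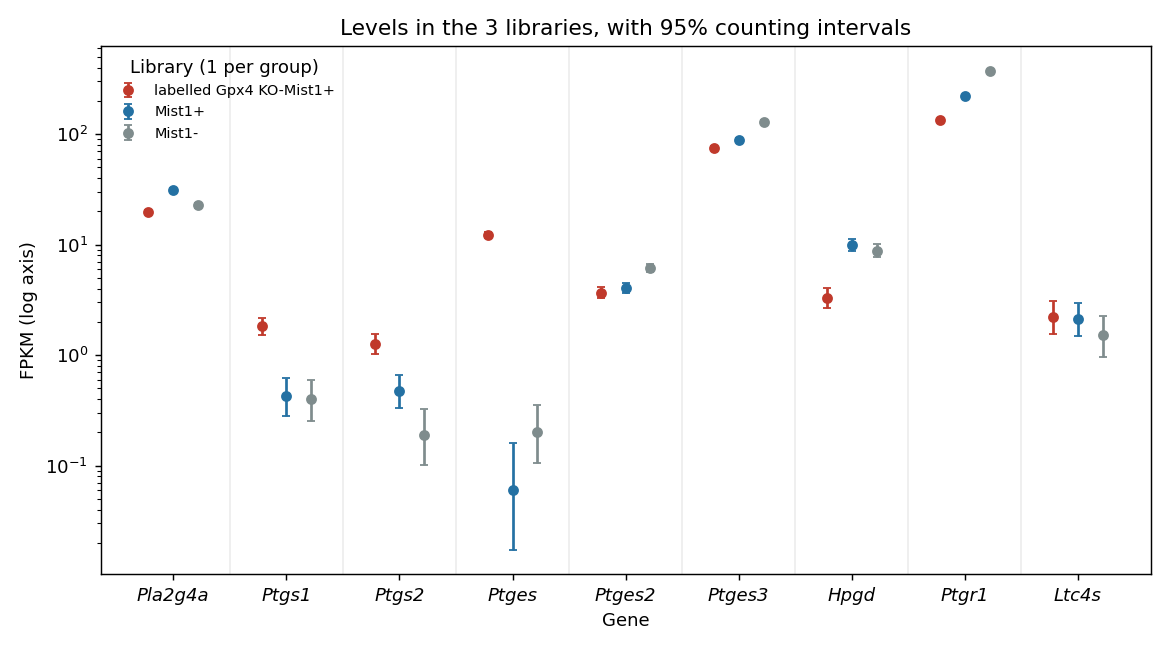
FPKM of the 9 enzyme genes on a log axis in the library labelled Gpx4 KO-Mist1+, in Mist1+ and in Mist1- (left to right within each gene). Points are single libraries and bars are 95% counting intervals. Ptges sits at 12.2 FPKM in the library labelled Gpx4 KO-Mist1+ and at 0.06 and 0.20 in the others, while Ptgr1 and Ptges3 are the most abundant in each library.

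Both cyclooxygenase genes had more counts in the library labelled Gpx4 KO-Mist1+, at low levels. Ptgs1 encodes cyclooxygenase 1, the form present in resting gastric mucosa. It had 116 counts (95.9 to 139) for the library labelled Gpx4 KO-Mist1+, 27 (17.8 to 39.3) in Mist1+ and 23 (14.6 to 34.5) in Mist1-. The interval of the first library lay above those of the wild-type libraries, which overlapped each other. Per total, the library labelled Gpx4 KO-Mist1+ had 4.24-fold more Ptgs1 counts (2.77 to 6.71) than Mist1+ and 4.60-fold more (2.92 to 7.54) than Mist1-. The FPKM values were 1.82 in the library labelled Gpx4 KO-Mist1+, 0.43 in Mist1+ and 0.40 in Mist1-, so the log2 ratio of FPKM plus 1 was 0.98 against Mist1+, just short of the 2-fold call, and 1.01 against Mist1-, just past it. Median ratio scaling, which divides each library by a size factor from the counts of all genes, turned both calls round, with a call against Mist1+ and none against Mist1-. A gene model on the other strand inside Ptgs1, Gm43621, had 3 counts in the library labelled Gpx4 KO-Mist1+ and 0 in Mist1+ and in Mist1-.

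Ptgs2 encodes cyclooxygenase 2, the form induced by growth factors and inflammatory signals. It had 95 counts (76.9 to 116) for the library labelled Gpx4 KO-Mist1+, 35 (24.4 to 48.7) in Mist1+ and 13 (6.92 to 22.2) in Mist1-. The 3 intervals did not overlap, and the order was the library labelled Gpx4 KO-Mist1+, then Mist1+, then Mist1-. The fold was 2.68 (1.80 to 4.07) for the library labelled Gpx4 KO-Mist1+ against Mist1+, 2.49 (1.28 to 5.12) for Mist1+ against Mist1-, and 6.66 (3.71 to 13.0) for the library labelled Gpx4 KO-Mist1+ against Mist1-. At 1.27 FPKM in the library labelled Gpx4 KO-Mist1+, 0.47 in Mist1+ and 0.19 in Mist1-, none of these was called on FPKM plus 1, where the log2 ratios were 0.63, 0.30 and 0.93 in the order of the folds above. The antisense RNA gene Ptgs2os, upstream of Ptgs2, had 0 counts in each library. Per length Ptgs1 was 1.44-fold (1.09 to 1.91) above Ptgs2 in the library labelled Gpx4 KO-Mist1+, in Mist1+ the ratio was 0.91 (0.53 to 1.55), so that the genes were not told apart there, and in Mist1- it was 2.09 (1.01 to 4.48).

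Pla2g4a, which encodes cytosolic phospholipase A2-alpha, the enzyme that selects arachidonate for release, was lower in the library labelled Gpx4 KO-Mist1+ than in Mist1+. It had 2083 counts in the library labelled Gpx4 KO-Mist1+, 3249 in Mist1+ and 2157 in Mist1-, or 19.9, 31.4 and 22.6 FPKM. Mist1+ was the highest, and the other libraries were near each other. The library labelled Gpx4 KO-Mist1+ was 1.58-fold lower (1.49 to 1.67) than Mist1+ and 1.14-fold lower (1.07 to 1.21) than Mist1-, the last a direction that turned when FPKM was rescaled to a common sum (log2 ratio 0.11). The gap between the release enzyme and the cyclooxygenases was narrower in the library labelled Gpx4 KO-Mist1+. Per length Pla2g4a was 10.9-fold (9.05 to 13.3) above Ptgs1 there, against 73.1-fold (50.2 to 111) in Mist1+ and 57.0-fold (37.9 to 90.1) in Mist1-.

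The breakdown enzymes were lower in the library labelled Gpx4 KO-Mist1+. Hpgd encodes 15-hydroxyprostaglandin dehydrogenase, which oxidises prostaglandin E2 to an inactive ketone. It had 91 counts (73.3 to 112) for the library labelled Gpx4 KO-Mist1+, 272 (241 to 306) in Mist1+ and 222 (194 to 253) in Mist1-. The first interval lay below the others, which overlapped. Its FPKM was 3.30 in the library labelled Gpx4 KO-Mist1+, 9.98 in Mist1+ and 8.83 in Mist1-. It was called lower in the library labelled Gpx4 KO-Mist1+ against both wild-type libraries, by 3.03-fold (2.38 to 3.88) against Mist1+ and 2.68-fold (2.09 to 3.46) against Mist1-. The call against Mist1- was lost without the trend on exonic length (log2 ratio -0.78) and with a pseudocount of 5 (-0.74), and that against Mist1+ with a pseudocount of 5. From the bottom of the 13351 genes it stood at rank 130 against Mist1+ and at rank 682 against Mist1-. A gene model inside Hpgd on the same strand, Gm45540, had 1 count in the library labelled Gpx4 KO-Mist1+, 12 in Mist1+ and 0 in Mist1-. Set against each other per length, Ptges was 3.70-fold (2.97 to 4.65) above Hpgd in the library labelled Gpx4 KO-Mist1+, and Hpgd was 159-fold (61.3 to 587) above Ptges in Mist1+ and 43.2-fold (24.2 to 84.9) above it in Mist1-.

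Ptgr1 encodes prostaglandin reductase 1, which reduces the ketones that Hpgd makes and some reactive aldehydes, and which also acts on leukotriene B4. It had the highest FPKM of the 9 genes in each library. Its counts were 5029 in the library labelled Gpx4 KO-Mist1+, 8261 in Mist1+ and 12828 in Mist1-, or 134, 222 and 374 FPKM. The libraries thus fell in steps of similar size. The library labelled Gpx4 KO-Mist1+ was 1.66-fold lower (1.61 to 1.72) than Mist1+, and Ptgr1 was 1.68-fold lower (1.64 to 1.73) in Mist1+ than in Mist1-. It was called lower in the library labelled Gpx4 KO-Mist1+ against Mist1-, at 2.80-fold (2.71 to 2.89). Markers of pit cells, the surface mucous cells of the stomach, were low in the same libraries, with a summed level of 4 genes of 90.4 FPKM in the library labelled Gpx4 KO-Mist1+, 98.0 in Mist1+ and 713 in Mist1-. Of these, Tff1, Gkn1 and Gkn2 were called lower in both of the first libraries against Mist1-, and Muc5ac was below 1 FPKM throughout. The summed level of 6 chief cell markers was 2641 FPKM in the library labelled Gpx4 KO-Mist1+, 3506 in Mist1+ and 2018 in Mist1-, with Pga5 and Lipf at 0 in each. Of 3 mucous neck cell markers, with summed levels of 145, 94.7 and 192 FPKM in the same libraries, the level of Muc6 in the first was 3.61-fold higher (3.40 to 3.83) than in Mist1-, while Tff2 was at 111 FPKM in the library labelled Gpx4 KO-Mist1+, 52.5 in Mist1+ and 178 in Mist1-. The part of these cell types in the values of Ptgr1 and the other enzymes was not tested.

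Ltc4s, the leukotriene C4 synthase gene, had low counts in all libraries. They were 37 (26.1 to 51.0) for the library labelled Gpx4 KO-Mist1+, 35 (24.4 to 48.7) in Mist1+ and 23 (14.6 to 34.5) in Mist1-. The intervals overlapped throughout. The fold of the library labelled Gpx4 KO-Mist1+ was 1.04 (0.64 to 1.71) against Mist1+ and 1.47 (0.85 to 2.58) against Mist1-. Both intervals hold 1, and at this depth a difference within those bounds was not excluded. An antisense gene that overlaps Ltc4s, Gm26542, had 9 counts in the library labelled Gpx4 KO-Mist1+, 23 in Mist1+ and 26 in Mist1-. The strand setting of the counting is not given in the sources used here, so reads of the overlapping genes cannot be told apart.

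**Figure D2:**
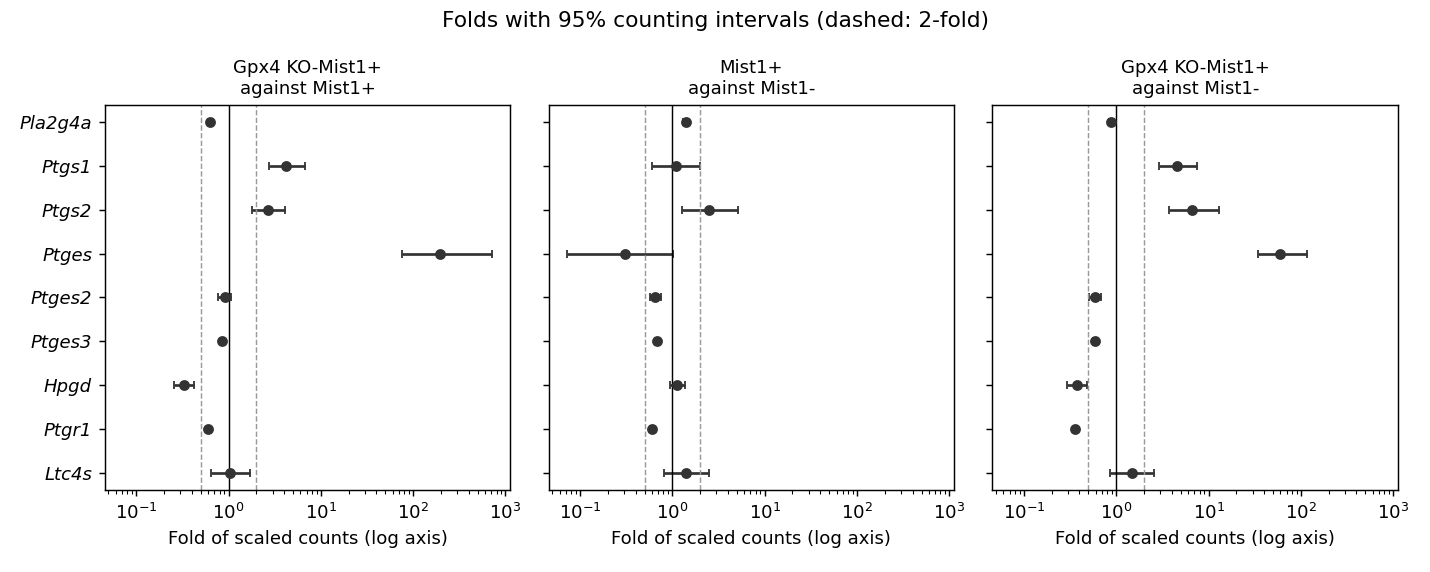
Fold of scaled counts on a log axis for the 9 genes in the 3 comparisons. Points are folds between single libraries, bars are 95% counting intervals, the solid line is no difference and dashed lines are 2-fold. Against Mist1+ the library labelled Gpx4 KO-Mist1+ has Ptges, Ptgs1 and Ptgs2 to the right of 2-fold and Hpgd to the left, while Mist1+ against Mist1- has Ptgs2 alone beyond 2-fold with an interval that leaves out 1.

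Counted over the 9 genes, 1 (Ptges) was called higher and 1 (Hpgd) lower in the library labelled Gpx4 KO-Mist1+ against Mist1+, where 4.81% of all tested genes were called higher and 2.74% lower. Against Mist1- the library had 2 called higher (Ptges and Ptgs1) and 2 lower (Hpgd and Ptgr1), beside 11.6% and 8.56% of all tested genes. In Mist1+ against Mist1- none of the 9 was called in either direction, beside 7.88% and 5.73%. A call on the counts themselves, with at least 2-fold and an interval that leaves out 1, was added after the values were seen. By it, 3 genes (Ptges, Ptgs1 and Ptgs2) were higher and 1 (Hpgd) lower in the library labelled Gpx4 KO-Mist1+ against Mist1+, beside 6.62% and 4.8%. The same rule gave 3 higher and 2 lower against Mist1-, beside 17% and 11.3%, and 1 higher (Ptgs2) and 0 lower in Mist1+ against Mist1-, beside 13.6% and 7.51%. All 9 genes passed the filter, but Ptges, Ptgs1 and Ptgs2 reached 1 FPKM in the library labelled Gpx4 KO-Mist1+ alone, so their passing depends on that library. The median log2 ratio of the 9 genes was -0.11 against -0.09 for all tested genes in the library labelled Gpx4 KO-Mist1+ against Mist1+, 0.03 against 0.15 in Mist1+ against Mist1-, and -0.18 against 0.09 in the library labelled Gpx4 KO-Mist1+ against Mist1-. The genes of the list thus went in different directions. Their median was near that of all genes in the library labelled Gpx4 KO-Mist1+ against Mist1+ and further below it in the other comparisons.

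**Figure D3:**
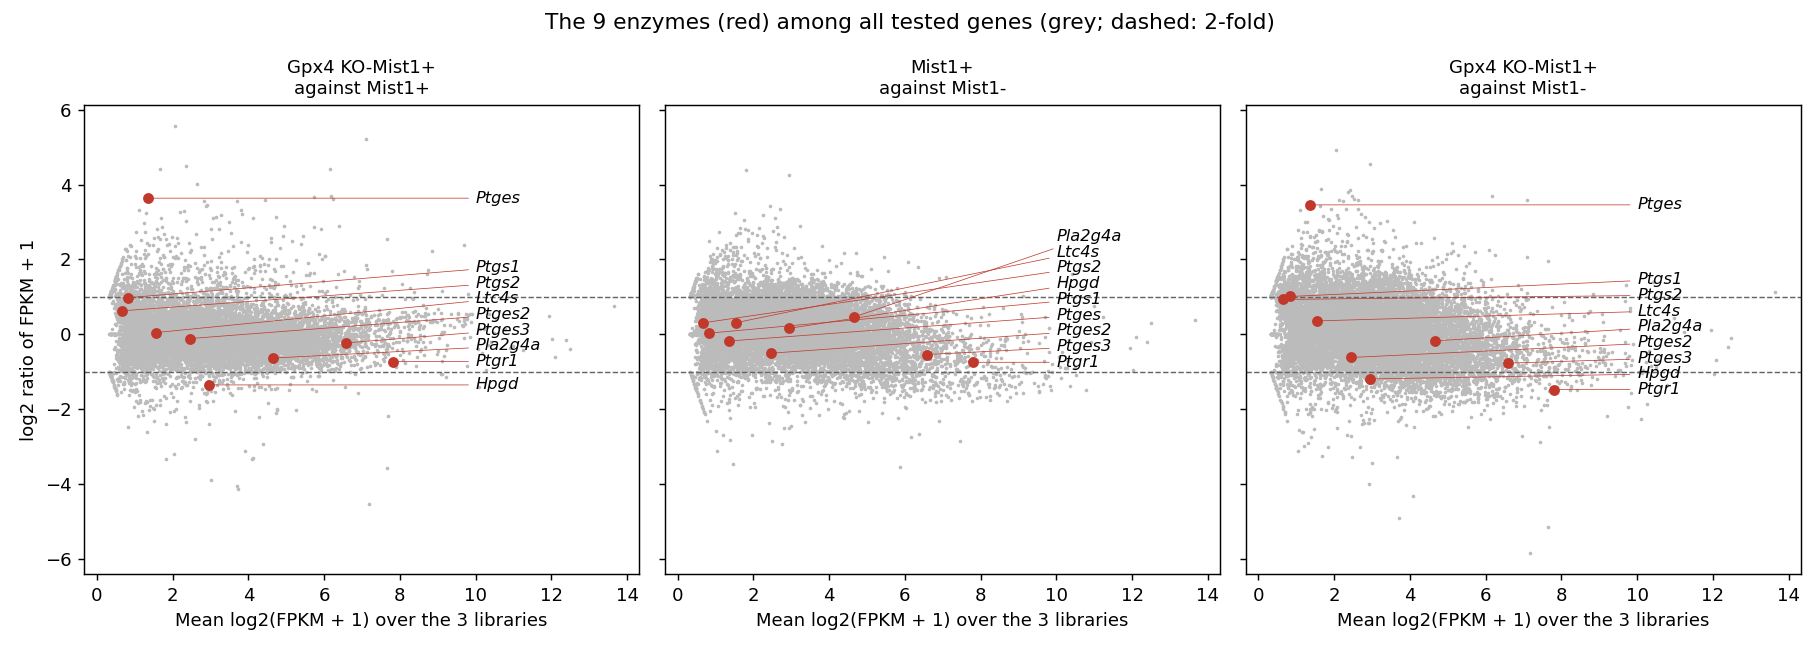
Log2 ratio of FPKM plus 1 against the mean log2 level over the 3 libraries, for all 13351 tested genes (grey) and the 9 enzyme genes (red), in the 3 comparisons. Dashed lines mark 2-fold. Ptges lies at 3.64 in the library labelled Gpx4 KO-Mist1+ against Mist1+ and at -0.18 in Mist1+ against Mist1-, and Hpgd lies at -1.35 and 0.16.

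Mist1+ and Mist1- also differed in some of these genes. Ptges2, Ptges3 and Ptgr1 were lower in Mist1+ with intervals that leave out 1, Pla2g4a (1.39-fold, 1.32 to 1.47) and Ptgs2 were higher, and Ptges, Ptgs1, Hpgd and Ltc4s lay within counting error. Gene length moved with this comparison, with a Spearman rho of 0.49 between exonic length and log2 ratio across the 13351 genes, which are not independent replicates and share both libraries. With the trend on length removed, the log2 ratio of Pla2g4a, whose exons span 6391 bases, was 0.05 beside 0.46 before. That of Ptgr1, with 2296 bases, was -0.51 beside -0.75, and that of Ptges3 was -0.28 beside -0.54. Ptges2, with 5058 bases, was at -0.78 beside -0.51. Ptgs2 was at 0.10 beside 0.30 and Ltc4s at 0.77 beside 0.31. Hpgd was at 0.56 beside 0.16, a move beyond its counting interval. Ptges was at -0.29 beside -0.18 and Ptgs1 at -0.07 beside 0.03. The directions named at the start of this paragraph are those with the length trend left in. The part of length in these values was not tested further. The rho was -0.02 for the library labelled Gpx4 KO-Mist1+ against Mist1+ and 0.39 for it against Mist1-. In that last comparison removal of the trend gave Hpgd, with 1683 bases, -0.78 beside -1.19, Ptgr1 -1.17 beside -1.48 and Pla2g4a -0.50 beside -0.18.

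Other genes of the pathway were listed from textbook roles, 70 in all, and 28 of them reached 1 FPKM in some library. In the library labelled Gpx4 KO-Mist1+ against Mist1+, 1 of the 28 was called higher and 5 lower, where 4.81% and 2.74% of all tested genes were. In Mist1+ against Mist1- 0 were called higher and 2 lower, beside 7.88% and 5.73%. For the library labelled Gpx4 KO-Mist1+ against Mist1-, 2 were higher and 6 lower, beside 11.6% and 8.56%. Their median log2 ratios were -0.14, -0.03 and -0.14 in that order.

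Among 19 phospholipase and arachidonate supply genes 9 were measured, and 3 were called lower in the library labelled Gpx4 KO-Mist1+ against Mist1+, beside 2.74% of all tested genes, and 0 higher, beside 4.81%. Pla2g4c, a relative of Pla2g4a, had 2023 counts in the library labelled Gpx4 KO-Mist1+, 5768 in Mist1+ and 2786 in Mist1-, or 32.9, 95.1 and 49.8 FPKM, and had the highest FPKM of the measured phospholipases in each library. Pla2g10, a secreted phospholipase A2, had 56 counts (2.27 FPKM) in the library labelled Gpx4 KO-Mist1+, 249 (10.2 FPKM) in Mist1+ and 335 (14.9 FPKM) in Mist1-. Pla2g1b, another secreted form, had 21 counts (1.80 FPKM) in the library labelled Gpx4 KO-Mist1+, 68 (5.89 FPKM) in Mist1+ and 54 (5.07 FPKM) in Mist1-. Pla2g10 and Pla2g1b were also called lower in the library labelled Gpx4 KO-Mist1+ against Mist1-. The calcium-independent Pla2g6 was at 9.11 FPKM in the library labelled Gpx4 KO-Mist1+, 6.14 in Mist1+ and 4.53 in Mist1-, and was not called in any comparison.

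Of 8 genes for terminal synthases of the other prostanoids, 4 were measured. Hpgds and Ptgds, which make prostaglandin D2, were near 0, at 1 and 2 counts in the library labelled Gpx4 KO-Mist1+, 3 and 0 in Mist1+ and 3 and 10 in Mist1-. Ptgis, the prostacyclin synthase gene, had 0 counts in each library, and Tbxas1, the thromboxane synthase gene, had 10 in the library labelled Gpx4 KO-Mist1+, 11 in Mist1+ and 8 in Mist1-. Prxl2b (listed as Fam213b), a prostamide and prostaglandin F synthase, was measured at 3.74 FPKM in the library labelled Gpx4 KO-Mist1+, 2.59 in Mist1+ and 4.10 in Mist1-, and was not called. Reductases with broad substrates had higher levels. Cbr1, a carbonyl reductase that can reduce prostaglandin E2 to F2-alpha, was at 80.8 FPKM in the library labelled Gpx4 KO-Mist1+, 81.9 in Mist1+ and 171 in Mist1-, and was called lower in both of the first libraries against Mist1-. The aldo-keto reductase gene Akr1b8 was at 82.3 FPKM in the library labelled Gpx4 KO-Mist1+, 52.6 in Mist1+ and 147 in Mist1-, and was called lower in Mist1+ against Mist1-.

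Of 3 transport genes, Abcc4, an exporter of prostaglandin E2, was at 21.1 FPKM in the library labelled Gpx4 KO-Mist1+, 14.8 in Mist1+ and 9.24 in Mist1-, and was called higher in the first against Mist1-. Slco3a1, an uptake carrier, was at 0.98 FPKM in the library labelled Gpx4 KO-Mist1+, 3.90 in Mist1+ and 1.86 in Mist1-, and was called lower in the library labelled Gpx4 KO-Mist1+ against Mist1+. Slco2a1, the prostaglandin uptake transporter gene, had 5 counts in the library labelled Gpx4 KO-Mist1+ and 4 in Mist1+ and in Mist1-. The 3 further breakdown genes were not called in any comparison, among them the prostaglandin reductase gene Ptgr2 at 8.13 FPKM in the library labelled Gpx4 KO-Mist1+, 6.68 in Mist1+ and 5.78 in Mist1-. Of 9 prostanoid receptor genes only Ptger4, a prostaglandin E2 receptor that raises cyclic AMP, reached 1 FPKM, at 3.06 in the library labelled Gpx4 KO-Mist1+, 3.68 in Mist1+ and 3.13 in Mist1-, and it was not called. Ptger2, Ptgdr, Ptgfr, Ptgir and Tbxa2r had 0 counts in each library, and Ptger1 had 29 in the library labelled Gpx4 KO-Mist1+, 32 in Mist1+ and 17 in Mist1-.

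Of 13 further leukotriene genes 5 were measured. Alox5, the gene for 5-lipoxygenase, which starts the pathway, had 6 counts in the library labelled Gpx4 KO-Mist1+, 1 in Mist1+ and 2 in Mist1-, and its partner Alox5ap had 12 in the library labelled Gpx4 KO-Mist1+, 6 in Mist1+ and 5 in Mist1-. Enzymes further along the pathway were mixed. Ggt5, Dpep1 and Cyp4f18, from the steps that process leukotrienes C4, D4 and B4, had 0 counts in each library, and Dpep2, Cyp4f14 and Ggt1 were below 1 FPKM. Lta4h, which makes leukotriene B4, was at 19.5 FPKM in the library labelled Gpx4 KO-Mist1+, 43.9 in Mist1+ and 46.4 in Mist1-. It was called lower in the first against both wild-type libraries, with log2 ratios of -1.13 against Mist1+ and -1.21 against Mist1-. The microsomal glutathione transferase gene Mgst1 was at 90.0 FPKM in the library labelled Gpx4 KO-Mist1+, 112 in Mist1+ and 185 in Mist1-, and its relative Mgst3 at 29.4, 53.2 and 105 in the same libraries. Both were called lower in the library labelled Gpx4 KO-Mist1+ against Mist1-. Abcc1, an exporter of leukotriene C4, was called higher in that comparison, at 12.5 FPKM in the library labelled Gpx4 KO-Mist1+, 7.61 in Mist1+ and 4.08 in Mist1-. Mgst2, another relative of Mgst1, was at 15.0 FPKM in the library labelled Gpx4 KO-Mist1+, 8.44 in Mist1+ and 16.5 in Mist1-. In the first it was 1.78-fold higher (1.59 to 1.99) than in Mist1+, and it was not called in any comparison. None of the 5 leukotriene receptor genes reached 1 FPKM, and Cysltr1, Cysltr2 and Oxgr1 had 0 counts in each library. Of 10 genes for other lipoxygenases and the epoxide route 4 were measured. Ephx2, the soluble epoxide hydrolase that turns arachidonate epoxides into diols, had 273 counts in the library labelled Gpx4 KO-Mist1+, 44 in Mist1+ and 108 in Mist1-, and was called higher against Mist1+ at 6.13-fold (4.44 to 8.63). Alox15 was at 0.52 FPKM in the library labelled Gpx4 KO-Mist1+, 0.83 in Mist1+ and 1.31 in Mist1-, and Alox12 had 20 counts in the first and 19 in each of the others.

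**Figure D4:**
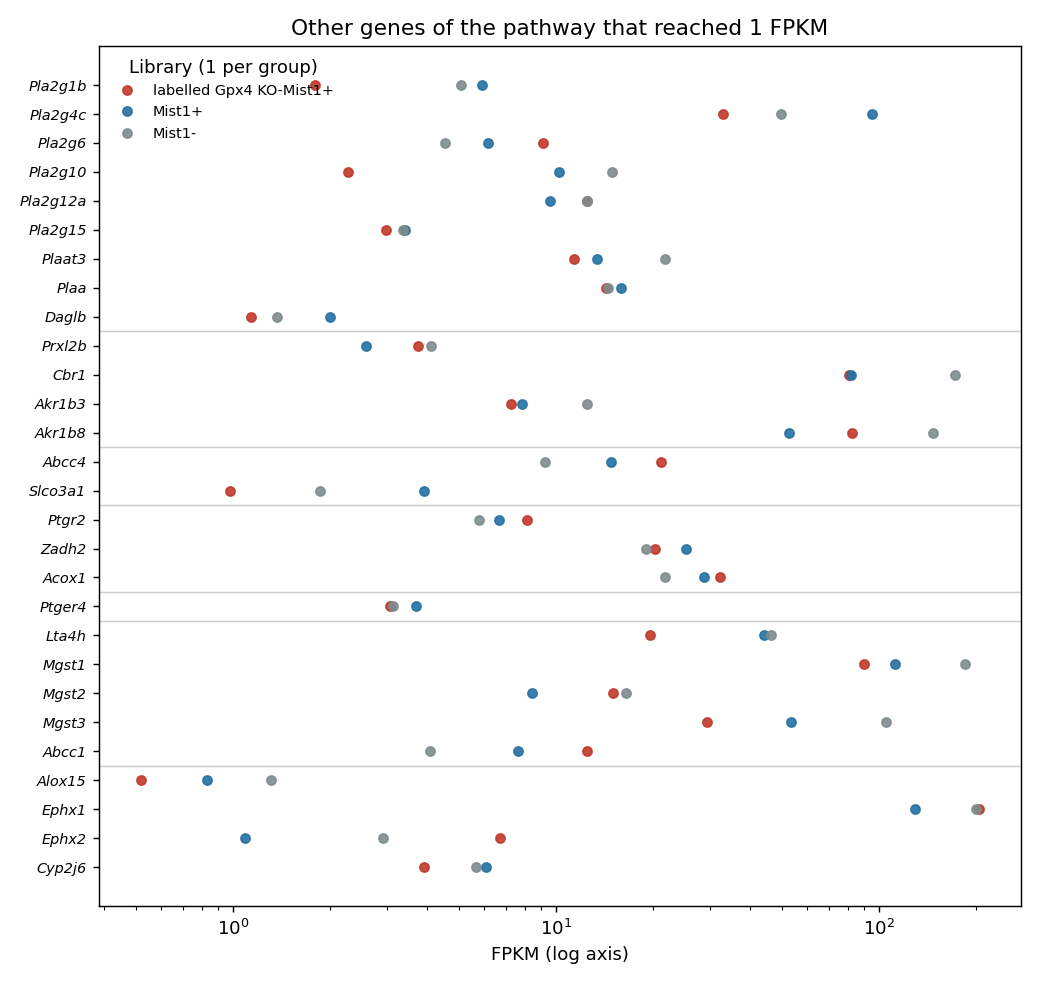
FPKM on a log axis of the 28 other pathway genes that reached 1 FPKM, in the library labelled Gpx4 KO-Mist1+, in Mist1+ and in Mist1- (1 point per library, lines between gene groups). Pla2g4c runs between 32.9 and 95.1 FPKM, and Ephx2 between 1.09 and 6.70.

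Some of these enzymes are also known from cell types other than the main epithelial lineages. In bulk RNA fewer cells of a type and less RNA per cell cannot be told apart. Tuft cells, a rare chemosensory epithelial type, are known for Ptgs1 and Ltc4s. Of 8 tuft cell markers Pou2f3, Il25 and Gfi1b had 0 counts in each library, Trpm5 had 18 counts in the library labelled Gpx4 KO-Mist1+, 20 in Mist1+ and 4 in Mist1-, and Dclk1 had 140 in the library labelled Gpx4 KO-Mist1+, 32 in Mist1+ and 5 in Mist1-. Avil alone of them passed the filter, at 17.4 FPKM in the library labelled Gpx4 KO-Mist1+, 5.00 in Mist1+ and 9.55 in Mist1-. The summed level of the 8 was 18.3 FPKM in the library labelled Gpx4 KO-Mist1+, 5.37 in Mist1+ and 9.67 in Mist1-. The part of Dclk1 and Avil expressing cells in the Ptgs1 values was not tested. Summed counts of 6 leukocyte markers were 3 in the library labelled Gpx4 KO-Mist1+, 11 in Mist1+ and 18 in Mist1-. Those of 7 mast cell and eosinophil markers were 7, 14 and 10, and those of 6 fibroblast markers 19, 26 and 50, in the same libraries, so the defining genes of those cells were at or near 0. Of 5 macrophage markers Adgre1, Csf1r and Lyz2 had at most 3 counts in any library. Cd68 had 503 counts in the library labelled Gpx4 KO-Mist1+, 103 in Mist1+ and 82 in Mist1-, and Cd14 had 924, 893 and 1051 in the same libraries.

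The genes closest in pattern to Ptges were few. Likeness was the distance between log2 values of FPKM plus 1, centred on their mean, over the 3 libraries, among genes with at least 5 FPKM in their highest library. For Ptges the nearest were Mir7663, with 9 counts in the library labelled Gpx4 KO-Mist1+ and 0 in the others, the pseudogene Gm16329, with 134 counts in the library labelled Gpx4 KO-Mist1+, 8 in Mist1+ and 7 in Mist1-, and Lcn2, the gene for the iron-siderophore binding protein lipocalin 2, with 1401 counts in the library labelled Gpx4 KO-Mist1+, 87 in Mist1+ and 126 in Mist1-. Within a distance of 0.25, only 2 genes lay near Ptges, against 47 for Hpgd, 121 for Ptgs1 and 223 for Ptgr1. Nearest to Hpgd were Ccdc92, the phospholipase gene Pla2g1b and Tmem62. Nearest to Ptgs1 were Cyp2c23, Xbp1 and Ccng2, and nearest to Ptgr1 were Pfn1, Fxyd3 and the pseudogene Gm10074. Over 3 values many genes share a pattern, and nothing follows from the likeness.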

How the data were processed

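Per the submitters' processing notes, cutadapt 1.9.1, HISAT2 2.2.1, HTSeq 0.6.1 and the build GRCm38.p5 were used. The deposited table gives for each of 3 libraries a count, a whole number of reads per gene, per the file headers. It also gives an FPKM for each library and an exonic length for each gene, per the file headers. For genes with at least 50 counts, the deposited FPKM were within 2.77% of the count scaled to exonic length and column total. Gene coordinates were taken from GENCODE M21 by gene ID, since those in the table were of another annotation, and all 9 genes matched. Lines without a symbol (2639) held at most 0.298% of the counts and stayed in the totals. No per-sample column was left unused.

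The values were computed with pandas 2.3.3, numpy 2.4.6, statsmodels 0.14.6 and scipy 1.17.1 and drawn with matplotlib 3.10.9, all under Python 3.11.15. Intervals are exact, Poisson for a count and, for a fold, from the binomial share of one library in the pair's counts. Reads are not unique molecules, so intervals cover counting error only. No test was made with 1 library per group. The functions were tested on simulated data. The 9 genes, the pathway and marker lists and the tests were chosen with earlier results of these data known. Named genes are the 9, up to 4 called or most abundant genes per pathway list and the 3 nearest in pattern to each called gene. Gpx4 and Bhlha15 were named as label checks. Mgst2, and further genes at or near 0, were named after their values were seen. The settings varied were the pseudocount (0.1 and 5), the filter (none or at least 5 FPKM), the scaling by TPM, median ratio or CPM, the lowess trend on exonic length (fraction 0.3) removed, and the threshold at 1.5-fold or 4-fold; the call on counts was added after the values were seen. Promoter windows were found for all 9 genes in RefSeq.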

Additional observations from a re-analysis of the deposited data

How the results depend on the processing

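Across the 9 genes and 3 comparisons 207 log2 ratios were recomputed with another pseudocount, filter, scaling or without the length trend. Of these 5 had the other sign, none of them in a gene called in that comparison. In 47 the shift in log2 ratio was larger than the distance from the centre of the fold's log2 counting interval to its ends. A value that shifted so far can still lie inside that interval. With at least 5 FPKM, Ptgs1, Ptgs2 and Ltc4s were not tested. No paired analysis was possible because each group has 1 library, and for the same reason no library could be left out. Ptges was called higher in the library labelled Gpx4 KO-Mist1+ against Mist1+ and against Mist1- under each alternative. Hpgd was called lower against Mist1+ except with a pseudocount of 5 and at 4-fold, and against Mist1- except with these and without the length trend. The causes of these moves were not tested.

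For the library labelled Gpx4 KO-Mist1+ against Mist1+, the 9 genes had 1 called higher, which was 3 with a pseudocount of 0.1, on CPM, at 1.5-fold and on counts, and 2 on TPM, with median ratio scaling and without the length trend. They had 1 called lower, which was 0 with a pseudocount of 5 and at 4-fold and 3 at 1.5-fold. The other pathway genes had 1 higher, which was 0 with a pseudocount of 5 and at 4-fold and 5 at 1.5-fold, and 5 lower, which was 2 with a pseudocount of 5 and 0 at 4-fold. For Mist1+ against Mist1-, the 9 genes had 0 higher, which was 1 on counts, and 0 lower, which was 1 at 1.5-fold. The other pathway genes had 0 higher, which was 1 with a pseudocount of 0.1 and on counts, 3 on TPM, 2 on CPM and 4 at 1.5-fold, and 2 lower, which was 5 with median ratio scaling, 9 at 1.5-fold and 0 at 4-fold. For the library labelled Gpx4 KO-Mist1+ against Mist1-, the 9 genes had 2 higher, which was 1 with a pseudocount of 5, with at least 5 FPKM, with median ratio scaling and at 4-fold, and 3 with a pseudocount of 0.1, on TPM, on CPM, at 1.5-fold and on counts, where Ptgs2 was added. They had 2 lower, which was 1 with a pseudocount of 5 and without the length trend, 4 at 1.5-fold and 0 at 4-fold. The other pathway genes had 2 higher, which was 0 with a pseudocount of 5 and at 4-fold, 4 on TPM, on CPM, at 1.5-fold and on counts, and 1 with median ratio scaling and without the length trend. They had 6 lower, which was 3 on TPM, 10 at 1.5-fold and 1 at 4-fold.

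Of all tested genes, 642 were called higher and 366 lower in the library labelled Gpx4 KO-Mist1+ against Mist1+. The split was 1028 to 773 with a pseudocount of 0.1, 226 to 70 with 5, 374 to 201 with at least 5 FPKM, 1348 to 1100 on TPM and 884 to 641 on counts. For Mist1+ against Mist1- it was 1052 to 765, and 1986 to 1130 with a pseudocount of 0.1, 129 to 396 with 5, 649 to 616 with at least 5 FPKM, 3795 to 673 on TPM, 643 to 1226 with median ratio scaling, 1594 to 680 on CPM, 584 to 516 without the length trend and 1818 to 1002 on counts. For the library labelled Gpx4 KO-Mist1+ against Mist1- it was 1553 to 1143, and 2477 to 1622, 349 to 564, 963 to 953, 4076 to 998, 1275 to 1511, 2200 to 1160, 1050 to 813 and 2267 to 1505 in the same order. At 1.5-fold the 3 splits were 1414 to 1514, 3165 to 2005 and 3421 to 2689, and at 4-fold 120 to 31, 81 to 38 and 165 to 76. The median log2 ratio of all tested genes in Mist1+ against Mist1- was 0.15, 0.45 on TPM and -0.03 with median ratio scaling, and that for the library labelled Gpx4 KO-Mist1+ against Mist1- was 0.09, 0.38 and -0.02. Depth limits Ptges, Ptgs1, Ptgs2 and Ltc4s most, with 4 to 35 counts in the wild-type libraries.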
